A study of Mus musculus with 8 samples.

Results

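Many transcribed places of the mouse genome have no gene name of their own and carry either a Gm number, which marks a predicted gene model, or a clone name ending in Rik, which marks a RIKEN cDNA. The 308 such loci described here are those whose FPKM values (fragments counted per kilobase of exon and scaled to library size) separated the 2 genotype labels: a mean of at least 0.5 FPKM over 8 libraries, all 4 KO-labelled values above or all 4 below the 4 WT values, and group means at least 1.5-fold apart. They were taken from 9790 predicted and RIKEN loci in a table of 28295 genes, 1841 of which reached the mean of 0.5 FPKM. Of the 308, 175 were higher and 133 were lower in KO-labelled fat. The loci were chosen by these same FPKM values, so the levels and ratios below describe them and carry no test.

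The tissue was epididymal white fat of male mice kept on a Western diet for 8 weeks and fasted for 6 h. The KO-labelled group (KO1 to KO4) had floxed Cul3 alleles and a Cre transgene under the Adipoq promoter, which is active in adipocytes and not in the other cells of fat. The WT group (WT1 to WT4) had the floxed Cul3 alleles too, and no Cre is stated for it. Cullin 3, the product of Cul3, holds ubiquitin ligases together, which mark chosen proteins for breakdown. The design asks how the RNA of whole fat differs when Cul3 is deleted in adipocytes. In bulk tissue, fewer cells of a type and less RNA per cell cannot be told apart.

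A Gm or Rik name says how a locus was found, not what it makes. Some of these loci encode proteins that await a name, some give long noncoding RNAs that lie between genes (lincRNAs) or run antisense to a named gene, and some are pseudogenes, which are reverse-transcribed or duplicated copies of other genes. Antisense RNAs and RNAs that start beside a gene often vary with that gene across tissues, and short reads from a pseudogene can be hard to separate from those of its parent. The label TEC in the annotation means that a transcript is still to be experimentally checked.

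The level of Cul3, the targeted gene, did not separate the labels. It was at 10.6, 11.2, 13.2 and 12.99 FPKM in KO1 to KO4, against 11.4, 9.66, 12.4 and 11.5 FPKM in WT1 to WT4 (log2 fold change 0.09 ± 0.10, standard error, limma adjusted p = 0.520), and the groups overlapped. These values cover the whole gene in whole tissue, and no source used here names the exons that Cre removes. The groups are therefore called by their labels, and every direction rests on them. Reads recovered from the FPKM values came to 15.2 to 18.7 in listed genes of the KO-labelled libraries and 17.7 to 19.7 in WT, in units of 1000000 reads. They made up 62.6% to 66.1% of the FPKM denominator in KO-labelled fat and 74.1% to 78.7% in WT fat. Over all genes, the log2 fold change had a median of -0.02 on the deposited scale and 0.21 with every library scaled to the same summed FPKM. Adipocyte markers summed to 2712 to 3791 FPKM in KO-labelled fat and 4686 to 7667 FPKM in WT fat, and 9 of 10 were called lower. Endothelial markers summed to 151 to 174 FPKM in KO-labelled fat and 218 to 301 FPKM in WT fat (9 of 10 called lower). Macrophage markers ran from 746 to 1725 FPKM in KO-labelled fat and from 556 to 1602 FPKM in WT fat, where WT4 was the library at the top (5 of 14 called higher). Epididymis and testis markers summed to 206, 8.66, 32.7 and 5.53 FPKM in KO1 to KO4, against 0.117, 54.9, 2.28 and 2.49 FPKM in WT1 to WT4, so KO1, WT2 and KO3 stood above the other 5 libraries. Liver markers stood at 465 FPKM in WT2 and 128 FPKM in WT1, and 3 of 6 were called lower, while none of 6 epididymis and testis markers was called. T and NK cell markers gave 2 of 3 called higher, the B cell marker Cd79b was called higher, skeletal muscle markers gave 1 of 2 called lower, and none of 6 mesothelial markers was called. Called here means a limma adjusted p under 0.05, which 11.7% of all 14400 genes passed higher and 18.6% lower. No marker of these 9 lists was at 0 in every library, and their part in the results below was not tested.

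The rule was met in the higher direction by 9.51% of the 1841 loci tested, beside 6.82% of all 14400 genes above the same minimum mean. In the lower direction it was met by 7.22% of these loci, beside 9.13% of all genes. Among genes with other names the shares were 6.43% higher and 9.41% lower. The sets were not matched in level: 1074 of the 1841 loci and 12280 of the 14400 genes had a mean of at least 1 FPKM. The median ratio of group means was 2.36 among the loci that were higher and 2.33 among those that were lower, and 37 and 34 loci in those 2 directions lay at least 4-fold apart. In level, 114 of the 175 higher loci and 58 of the 133 lower loci stayed under a mean of 2 FPKM in the group where they were higher, and 8 and 19 reached 10 FPKM. The split between directions depended on the scale. With every library scaled to the same summed FPKM, 319 loci met the rule in the higher and 75 in the lower direction, in place of 175 and 133. All genes shifted likewise: 2134 of the 14400 met it higher and 606 lower with that scaling, in place of 982 and 1315. With libraries scaled by their median ratio over genes (median-of-ratios), 179 loci met it higher and 129 lower, beside 1013 and 1270 of all genes. With quantile normalization, 149 loci met it higher and 148 lower, beside 1021 and 1182 of all genes. Without WT1 and WT2, the libraries with the most liver marker RNA, 267 and 158 met it, with fewer libraries that have to stay apart.

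**Figure D1:**
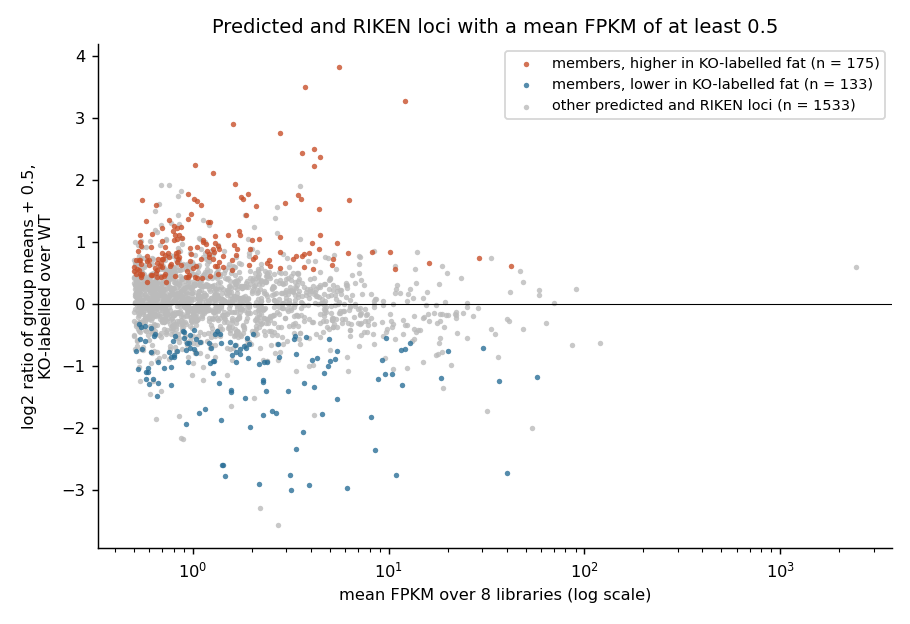
Each point is 1 of the 1841 predicted and RIKEN loci with a mean of at least 0.5 FPKM, by its mean FPKM over 8 libraries (log scale) and its log2 ratio of group means plus 0.5 FPKM, KO-labelled over WT. The 175 higher members (orange) and 133 lower members (blue) lie above and below 0 at means under 100 FPKM, and the grey points beyond the colours are loci whose groups overlapped.

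By annotation, lincRNAs held the largest share of loci that met the rule in the higher direction among the 8 annotation classes plotted. They gave 42 higher and 29 lower of 239, the largest share in both directions together too. In the lower direction alone, processed transcripts held a slightly larger share, 14 of 111 (12.6% against 12.1%). Antisense loci gave 34 higher and 22 lower of 286, and protein-coding loci 21 higher and 19 lower of 275. Pseudogenes of every kind gave 35 higher and 37 lower of 546. Small RNA genes, which poly(A) capture is not made for, gave 8 higher and 3 lower of 187.

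**Figure D2:**
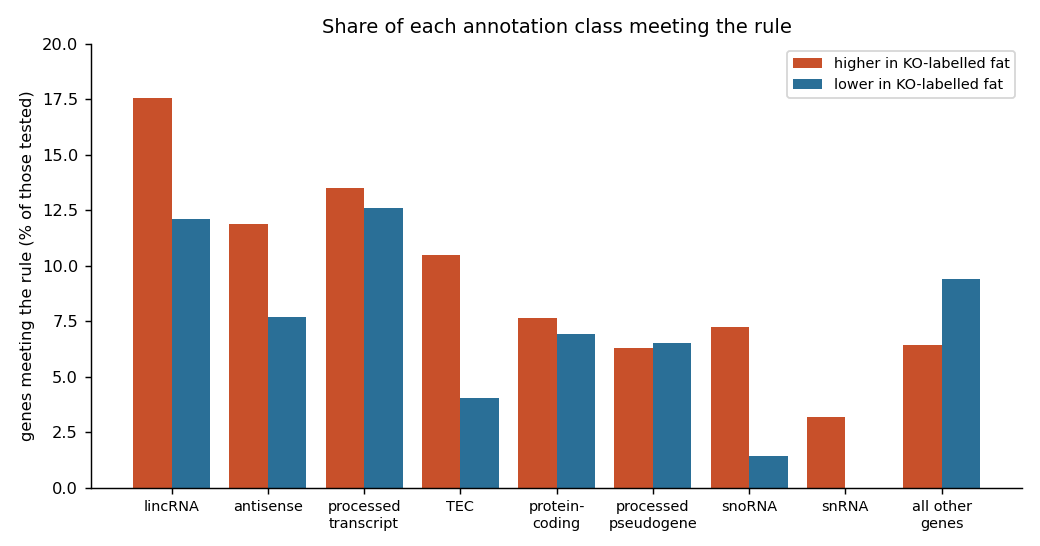
Bars give the percentage of tested predicted and RIKEN loci in each annotation class, and of all other genes at the right, that were higher (orange) or lower (blue) in KO-labelled fat by the rule. LincRNAs reached 17.6% higher and 12.1% lower, and all other genes 6.43% and 9.41%.

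RefSeq (GRCm38.p6, the build mm10) had a promoter window for 121 of the 308 loci, 74 higher and 47 lower, each covering 250 bases before to 50 bases after an annotated start. A pair of GAAA runs with any 2 bases between them, or of TTTC on the opposite strand, forms the core of the interferon-stimulated response element bound by interferon-induced factors. It was found in windows of 9 of 74 higher loci (12.2%) and 1 of 47 lower loci (2.13%). The share was 3.45% of the 377 other predicted and RIKEN loci with a window and 3.99% of all 27025 genes in the RefSeq table. A match is a run of letters, not a shown binding site. The higher loci that held it were Gm12250, Gm1966, I830077J02Rik, 4930599N23Rik, A930006K02Rik, Gm16675, Gm26797, Gm31305 and Gm31718, and the lower locus was Gm454. Windows of 4 higher loci follow, the first pair because they belong to interferon-inducible GTPase families and the other pair because one is protein-coding and the other starts 124 bases from Parp12, with that of Gm454 for contrast. Capitals mark the matches.
Gm12250: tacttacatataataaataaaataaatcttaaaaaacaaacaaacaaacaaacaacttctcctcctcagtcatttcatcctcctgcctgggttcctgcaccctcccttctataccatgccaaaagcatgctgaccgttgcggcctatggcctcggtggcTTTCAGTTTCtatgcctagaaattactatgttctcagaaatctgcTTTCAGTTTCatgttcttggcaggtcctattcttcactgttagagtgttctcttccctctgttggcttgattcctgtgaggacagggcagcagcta
Gm1966: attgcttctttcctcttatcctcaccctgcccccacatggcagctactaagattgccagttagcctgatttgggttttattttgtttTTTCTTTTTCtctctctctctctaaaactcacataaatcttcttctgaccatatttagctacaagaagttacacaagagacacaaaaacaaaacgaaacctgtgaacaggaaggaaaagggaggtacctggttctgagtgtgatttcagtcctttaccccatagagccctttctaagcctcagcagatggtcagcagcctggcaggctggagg
I830077J02Rik: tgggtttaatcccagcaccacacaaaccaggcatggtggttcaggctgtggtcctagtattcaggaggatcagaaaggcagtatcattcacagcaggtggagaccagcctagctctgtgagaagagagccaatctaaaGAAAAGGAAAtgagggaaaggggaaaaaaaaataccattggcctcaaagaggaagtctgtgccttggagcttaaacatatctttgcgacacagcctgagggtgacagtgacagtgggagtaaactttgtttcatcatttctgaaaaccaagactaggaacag
4930599N23Rik: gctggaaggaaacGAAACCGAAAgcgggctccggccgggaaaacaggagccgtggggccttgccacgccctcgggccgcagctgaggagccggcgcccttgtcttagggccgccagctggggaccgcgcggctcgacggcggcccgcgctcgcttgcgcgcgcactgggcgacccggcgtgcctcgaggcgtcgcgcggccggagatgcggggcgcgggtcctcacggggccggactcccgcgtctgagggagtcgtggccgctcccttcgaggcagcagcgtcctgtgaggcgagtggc
Gm454: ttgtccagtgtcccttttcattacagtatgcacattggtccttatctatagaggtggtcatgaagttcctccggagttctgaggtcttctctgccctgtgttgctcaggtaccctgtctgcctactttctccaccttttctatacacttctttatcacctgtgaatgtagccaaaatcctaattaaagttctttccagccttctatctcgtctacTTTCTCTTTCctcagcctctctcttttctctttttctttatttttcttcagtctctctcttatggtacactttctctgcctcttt
These windows lie at chr11:58183593-58183892, plus strand, chr7:106644596-106644895, minus strand, chr3:105932615-105932914, minus strand, chr6:39118223-39118522, plus strand, and chr5:138206224-138206523, minus strand. The RefSeq starts used did not all match the start of the gene in the annotation used for levels: they lay 3896 bases from it for Gm12250, 40610 for Gm1966 and 1035 for Gm454. Gm454 has 5 RefSeq windows, and 1 of them, the one printed, holds the match. In Gm12250 the same run of letters occurred at 2 places, 91 and 46 bases before the start.

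The core letters of the antioxidant response element, TGACNNNGC or GCNNNGTCA, to which NRF2 binds, were in windows of 7 of 74 higher loci (9.46%) and 7 of 47 lower loci (14.9%), beside 13.99% of all genes. The window of 1700047G03Rik, the lower locus with the highest mean among noncoding members, held it once in capitals, at chr15:11966812-11967111, plus strand, with a start 2786 bases from that of the gene in the annotation used for levels.
1700047G03Rik: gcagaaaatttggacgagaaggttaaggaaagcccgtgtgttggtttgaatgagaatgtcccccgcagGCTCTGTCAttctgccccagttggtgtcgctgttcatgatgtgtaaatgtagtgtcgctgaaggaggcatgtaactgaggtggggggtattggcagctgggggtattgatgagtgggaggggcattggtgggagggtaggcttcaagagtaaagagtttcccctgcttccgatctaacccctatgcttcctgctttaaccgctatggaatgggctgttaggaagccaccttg
TATA boxes (TATAAA or its reverse complement TTTATA) were in 16.2% of the higher, 23.4% of the lower, 8.75% of the other loci and 15.7% of all genes. CCAAT boxes (CCAAT or ATTGG) were in 41.9%, 46.8%, 38.5% and 41.1% of the same sets, and the E-box CACGTG in 9.46%, 12.8%, 10.3% and 8.09%. Both strands were searched, and a CCAAT box can overlap any other motif.

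Some of the higher loci belong to families of interferon-inducible GTPases, which act in cell defence against microbes within vacuoles. They are set side by side here after their values were seen, and the members of these families that did not meet the rule were not counted. Gm4951 (chr18:60212080-60247820), an immunity-related GTPase gene, was at 4.45, 5.57, 6.13 and 6.18 FPKM in KO1 to KO4, against 1.07, 1.44, 1.73 and 0.953 FPKM in WT1 to WT4. Its neighbour F830016B08Rik (chr18:60293380-60303016), of the same family, was at 1.999, 2.44, 1.78 and 1.45 FPKM in the KO-labelled libraries and 0.333, 0.481, 0.675 and 0.370 FPKM in the WT libraries. In both, WT3 was the highest WT library, and the ratios of means were 4.30 and 4.12. The processed pseudogene Gm5970 lies inside the span of Gm4951 and was at 1.31 ± 0.247 FPKM in KO-labelled fat and 0.206 ± 0.113 FPKM in WT fat (SD, n = 4 each, as for all ± values on FPKM means). Gm5431 (chr11:48887422-48902214), another member of the family, was at 4.07, 4.26, 3.20 and 2.14 FPKM in KO-labelled fat, against 0.670, 0.530, 0.666 and 1.37 FPKM in WT fat. WT4 stood apart from the other WT libraries there, and KO4 was the lowest KO-labelled library. Gm5431 is 95.7% identical to 9930111J21Rik1 over 96.5% of its length, so reads may be shared between them. 9930111J21Rik1 was at 1.08 ± 0.488 FPKM in KO-labelled fat and 0.634 ± 0.246 FPKM in WT fat and did not meet the rule. Irgm1, the nearest gene on the left of Gm5431 and a regulator of this family, was at 7.54 ± 0.518 FPKM in KO-labelled fat and 3.71 ± 0.713 FPKM in WT fat. Gm12250, annotated as a pseudogene and known as Irgb10, was at 7.80 ± 1.27 FPKM in KO-labelled fat and 1.11 ± 0.222 FPKM in WT fat, and Igtp beside it at 12.96 ± 1.44 FPKM in KO-labelled fat and 6.91 ± 1.32 FPKM in WT fat.

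Other higher loci, on chromosome 7, belong to the very large interferon-inducible GTPases and were picked in the same way. Gm4070 (chr7:105895139-105953967) was at 1.03, 1.22, 1.22 and 1.30 FPKM in KO1 to KO4, against 0.508, 0.518, 0.527 and 0.465 FPKM in WT1 to WT4, so that both groups were tight and stood 1.95-fold apart at their nearest libraries. Gm8995 was at 8.01 ± 1.85 FPKM in KO-labelled fat and 4.34 ± 1.17 FPKM in WT fat, and Gm1966 at 1.68 ± 0.495 FPKM in KO-labelled fat and 0.574 ± 0.165 FPKM in WT fat. Their sequences are alike: Gm4070 was 99.97% identical to Gvin1 and Gm1966 92.9% identical to it, over at least 50% of their length, so reads may be shared among them. Gvin1 was at 0.970 ± 0.111 FPKM in KO-labelled fat and 0.444 ± 0.0918 FPKM in WT fat. Gm15753, 96.5% identical to the interferon-induced gene Sp110, was at 0.995 ± 0.360 FPKM in KO-labelled fat and 0.411 ± 0.139 FPKM in WT fat, and Sp110 at 3.50 ± 0.360 FPKM in KO-labelled fat and 1.65 ± 0.199 FPKM in WT fat.

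Interferon-stimulated genes with names of their own were higher as well: 19 of 20 rose and none fell at a limma adjusted p under 0.05, with a median log2 fold change of 1.56, beside 11.7% called higher, 18.6% called lower and a median of -0.02 over all genes. Oasl1 had a log2 fold change of 1.97 ± 0.16, adjusted p = 0.000115, and Irf7, a transcription factor of this response, 2.41 ± 0.19, adjusted p = 0.000107 (limma, standard errors). Of the NRF2 target genes, 10 of 13 rose and 2 fell, among them the quinone reductase Nqo1 (2.14 ± 0.15, adjusted p = 5.7e-05, limma) and the lipogenic enzyme Me1 (-1.78 ± 0.24, adjusted p = 0.00122, limma). The other that fell was G6pdx, which like Me1 makes NADPH (-0.80 ± 0.12, adjusted p = 0.00159, limma). Me1 and G6pdx were named after their values were seen. Of long noncoding RNA genes with names of their own, 5 of 30 rose and 3 fell, beside 11.7% and 18.6% of all genes. Those with the smallest adjusted p were Neat1 (-0.86 ± 0.14, adjusted p = 0.00251, limma) and Meg3 (-1.22 ± 0.21, adjusted p = 0.00359, limma), which fell. Next came Mir17hg (0.61 ± 0.11, adjusted p = 0.00396, limma) and Snhg1 (0.53 ± 0.10, adjusted p = 0.00614, limma), which rose.

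Among the other protein-coding loci that were higher, Gm867 (chr10:75937723-75940672) had the largest ratio, at 14.9. It was at 5.37, 4.45, 5.04 and 6.12 FPKM in KO1 to KO4, against 0.319, 0.374, 0.320 and 0.397 FPKM in WT1 to WT4, and its lowest KO-labelled library, KO2, stood 11.2-fold above its highest WT library, WT4. It shares 25 exon bases on the opposite strand with Chchd10, which encodes a mitochondrial protein and was at 30.0 ± 8.51 FPKM in KO-labelled fat and 5.92 ± 2.09 FPKM in WT fat. Mmp11, a matrix metalloproteinase gene 1227 bases away, was at 12.2 ± 1.49 FPKM in KO-labelled fat and 3.20 ± 0.418 FPKM in WT fat. Gm10309 (chr17:86497732-86505232), inside the span of the kinase gene Prkce, was at 1.23, 1.34, 2.70 and 1.69 FPKM in the KO-labelled libraries and 0.0587, 0.125, 0.348 and 0.101 FPKM in the WT libraries. KO3 was its highest library, and Prkce itself was at 5.82 ± 1.48 FPKM in KO-labelled fat and 4.72 ± 0.443 FPKM in WT fat, with groups that did not meet the rule.

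Gm4737 (chr16:46152985-46155077) is 99.7% identical to Ahcy, which breaks down S-adenosylhomocysteine, and was at 4.28, 3.82, 3.29 and 4.46 FPKM in KO-labelled fat, against 1.07, 1.72, 1.38 and 2.31 FPKM in WT fat. Ahcy was at 15.9 ± 1.23 FPKM in KO-labelled fat and 8.06 ± 1.60 FPKM in WT fat, and the processed pseudogene Gm9826, 99.2% identical to it, at 1.41 ± 0.351 FPKM in KO-labelled fat and 0.522 ± 0.184 FPKM in WT fat. Ahcy too was higher in every KO-labelled library than in any WT library, as the rule requires of Gm4737 and Gm9826. Gm13212, 94.9% identical over part of its length to the zinc finger gene Zfp984, was at 2.85, 2.19, 3.14 and 2.01 FPKM in the KO-labelled libraries and 0.764, 0.673, 0.922 and 1.32 FPKM in the WT libraries. Gm10073, a copy of the ribosomal protein gene Rplp1 at 98.8% identity, was at 4.77, 4.28, 6.49 and 4.56 FPKM in KO1 to KO4, against 2.85, 2.78, 4.22 and 3.12 FPKM in WT1 to WT4, and Rplp1 itself at 620.4 ± 81.8 FPKM in KO-labelled fat and 633 ± 48.9 FPKM in WT fat. KO3 was the highest KO-labelled library for both Gm13212 and Gm10073, and WT3 came close to the KO-labelled range for Gm10073. Gm6377, which shares 229 exon bases with Sh3bgrl, was at 0.909, 1.37, 1.70 and 0.766 FPKM in KO-labelled fat, against 0.351, 0.269, 0.468 and 0.728 FPKM in WT fat, while Sh3bgrl was at 71.0 ± 7.33 FPKM in KO-labelled fat and 72.4 ± 7.93 FPKM in WT fat. KO4 and WT4 of Gm6377 lay close together.

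2 RIKEN loci with human counterparts were better expressed. 4931406P16Rik (chr7:34236707-34313551), the counterpart of human GARRE1, was at 12.7, 12.1, 13.6 and 14.3 FPKM in KO1 to KO4, against 6.13, 7.74, 8.22 and 6.62 FPKM in WT1 to WT4. 2810006K23Rik (chr5:124328089-124341844), the counterpart of human MTRFR, a mitochondrial release factor, was at 4.16, 4.52, 4.74 and 6.03 FPKM in the KO-labelled libraries and 3.09, 2.22, 2.93 and 2.07 FPKM in the WT libraries. KO4 was the highest library in both. 1810010H24Rik was at 3.67, 3.17, 3.23 and 3.64 FPKM in KO-labelled fat, against 2.37, 2.97, 1.79 and 1.40 FPKM in WT fat, with WT2 close to KO2. 1810062G17Rik, which lies 43 bases from Anxa5, was at 1.58, 1.70, 2.08 and 2.53 FPKM in KO1 to KO4, against 1.21, 1.33, 1.101 and 1.16 FPKM in WT1 to WT4. Anxa5 went the other way, at 168 ± 8.13 FPKM in KO-labelled fat and 256 ± 12.97 FPKM in WT fat. Gm45871 was at 2.66, 2.57, 3.17 and 2.54 FPKM in the KO-labelled libraries and 1.54, 0.905, 1.67 and 1.59 FPKM in the WT libraries, and 4930522L14Rik at 1.47, 1.253, 1.15 and 1.37 FPKM in KO-labelled fat, against 0.375, 0.606, 0.887 and 0.608 FPKM in WT fat. In both, WT3 was the highest WT library.

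The remaining protein-coding loci averaged under 1.5 FPKM in KO-labelled fat. I830077J02Rik, whose window is printed above, was at 0.683, 1.05, 0.576 and 0.508 FPKM in KO1 to KO4, against 0.301, 0.219, 0.320 and 0.355 FPKM in WT1 to WT4. KO2 was its highest library, and KO4 the nearest to WT. Gm5141 was at 1.04, 1.03, 1.16 and 0.889 FPKM in KO-labelled fat, against 0.622, 0.478, 0.410 and 0.490 FPKM in WT fat, 1700109H08Rik at 1.09, 1.199, 1.33 and 1.03 FPKM in the KO-labelled libraries and 0.576, 0.736, 0.841 and 0.757 FPKM in the WT libraries, and 6430571L13Rik at 0.837, 0.799, 0.652 and 0.832 FPKM in KO1 to KO4, against 0.337, 0.172, 0.255 and 0.363 FPKM in WT1 to WT4. As the rule requires, all KO-labelled libraries of these 3 loci lay above all WT libraries. 1700029J07Rik was at 1.18, 1.03, 1.08 and 1.22 FPKM in KO-labelled fat, against 0.601, 1.01, 0.589 and 0.638 FPKM in WT fat, where WT2 stood just under KO2 and the other WT libraries lower.

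Noncoding loci held most of the largest ratios. Gm45442 (chr7:45922215-45924174), antisense to Ccdc114 with 103 shared exon bases, was at 6.93, 10.4, 11.95 and 13.96 FPKM in KO1 to KO4, against 0.191, 0.406, 0.318 and 0.297 FPKM in WT1 to WT4. Gm20658 (chr12:116102769-116138648), antisense within Vipr2, a receptor gene for vasoactive intestinal peptide, was at 7.61, 7.44, 5.25 and 8.86 FPKM in the KO-labelled libraries and 0.128, 0.392, 0.0158 and 0.235 FPKM in the WT libraries. WT libraries were near 0 for both, and Vipr2 was at 0.998 ± 0.221 FPKM in KO-labelled fat and 0.352 ± 0.115 FPKM in WT fat while Ccdc114 was at 0.508 ± 0.152 FPKM in KO-labelled fat and 0.363 ± 0.0467 FPKM in WT fat. Gm14964 (chr19:6530711-6532011), antisense to the synaptic gene Nrxn2, was the most abundant of the 12, at 24.6, 16.1, 20.8 and 28.2 FPKM in KO-labelled fat, against 2.22, 1.98, 1.78 and 1.498 FPKM in WT fat. Slc22a12, a urate transporter gene 3834 bases from it, was at 4.38 ± 1.58 FPKM in KO-labelled fat and 0.0322 ± 0.0178 FPKM in WT fat, and Nrxn2 at 0.889 ± 0.210 FPKM in KO-labelled fat and 0.215 ± 0.0514 FPKM in WT fat. The ratios for Gm20658, Gm45442 and Gm14964 were 37.9, 35.7 and 11.99.

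Gm11868 (chr4:18844202-18845679), a processed pseudogene 98.0% identical to Cyb5r4, was at 1.51, 2.48, 2.18 and 1.91 FPKM in KO1 to KO4, against 0, 0.0565, 0.0295 and 0.0550 FPKM in WT1 to WT4. Cyb5r4, a cytochrome b5 reductase gene, was at 3.17 ± 0.0879 FPKM in KO-labelled fat and 3.93 ± 0.546 FPKM in WT fat and did not meet the rule. Gm37614 (chr9:88826604-88826813), a TEC locus 99.5% identical to part of Noct, was at 4.09, 3.69, 2.95 and 2.12 FPKM in the KO-labelled libraries and 0 FPKM in all 4 of the WT libraries. Noct, a gene with a circadian rhythm of expression, was at 3.01 ± 0.404 FPKM in KO-labelled fat and 3.39 ± 0.444 FPKM in WT fat. No read was recovered for Gm37614 in WT, so against 3 reads over the WT group it was at least 21.8-fold higher. Gm24407 (chr5:115490254-115490394), a small nuclear RNA gene, was at 1.22, 0.579, 0.878 and 1.72 FPKM in KO-labelled fat, against 0 FPKM in all 4 WT libraries, on the same floor at least 5.005-fold higher, with 2 reads in its lowest KO-labelled library.

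4 further noncoding loci were among the 12 largest. 1700023H06Rik (chr13:80884224-80885524), antisense within Arrdc3, was at 0.986, 0.508, 1.31 and 1.35 FPKM in KO1 to KO4, against 0.0376, 0.120, 0.125 and 0.156 FPKM in WT1 to WT4. Arrdc3, an arrestin-like gene that acts on beta-adrenergic receptors, was at 24.5 ± 4.22 FPKM in KO-labelled fat and 6.41 ± 1.24 FPKM in WT fat, and the lincRNA 5430425K12Rik, 54887 bases away, at 1.66 ± 0.496 FPKM in KO-labelled fat and 0.298 ± 0.124 FPKM in WT fat. Gm31522 (chr11:81983119-82019967) was at 1.44, 1.18, 1.30 and 3.34 FPKM in the KO-labelled libraries and 0.206, 0.164, 0.229 and 0.267 FPKM in the WT libraries, and KO4 stood apart from the other 3 KO-labelled libraries. Gm11419, which shares 294 exon bases with it on the opposite strand, was at 2.91 ± 0.881 FPKM in KO-labelled fat and 0.393 ± 0.113 FPKM in WT fat. Gm49303 (chr14:47960019-47973713), 93.7% identical to part of Msh3, was at 3.88, 1.38, 2.62 and 1.55 FPKM in KO-labelled fat, against 0, 0.567, 0.0987 and 0 FPKM in WT fat. WT2 was the only WT library of Gm49303 above 0.1 FPKM, and Msh3 was at 0.961 ± 0.158 FPKM in KO-labelled fat and 0.957 ± 0.0921 FPKM in WT fat. Gm35190 (chr13:3762282-3766722) was at 1.14, 1.29, 1.43 and 1.05 FPKM in KO1 to KO4, against 0.0564, 0.120, 0.126 and 0 FPKM in WT1 to WT4.

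**Figure D3:**
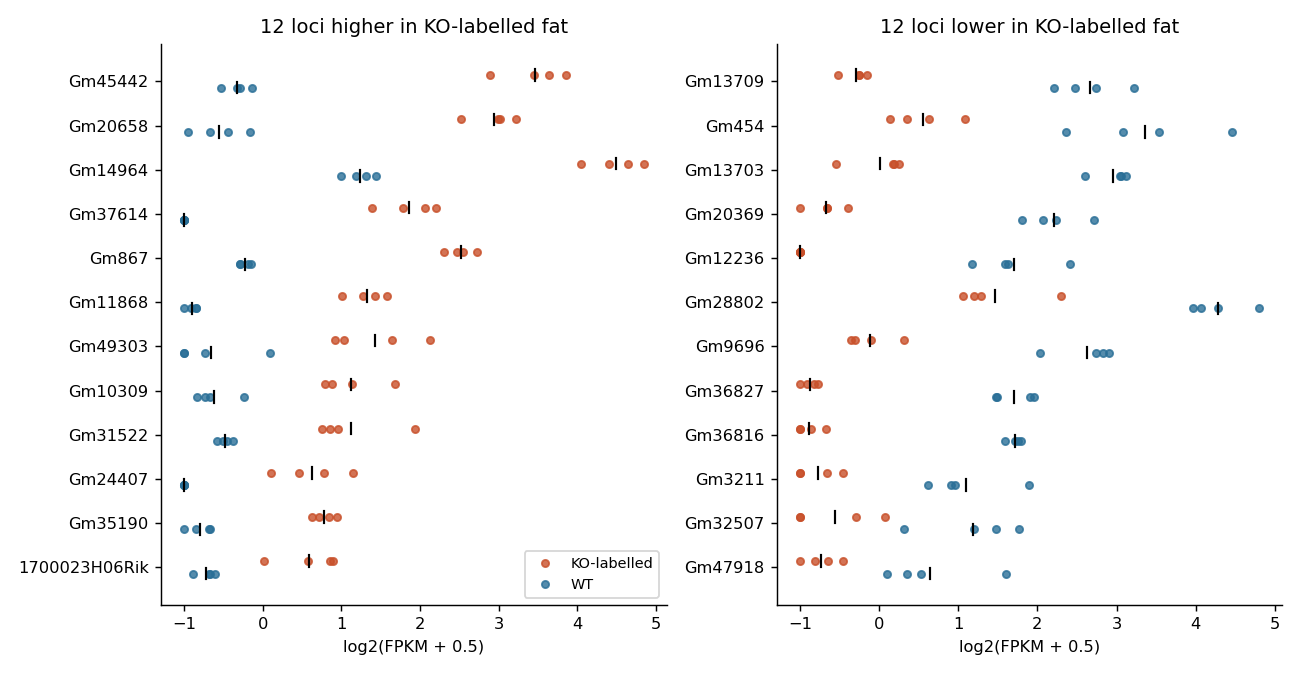
Points give log2(FPKM + 0.5) in each library for the 12 higher and 12 lower loci with the largest ratios among loci with a mean of at least 1 FPKM in the higher group, KO-labelled libraries in orange above WT libraries in blue, and black ticks give the group mean of the log2 values. By the rule that chose the loci, the groups are apart at every locus. Gm31522 and Gm28802 each have 1 KO-labelled library (KO4 and KO1) away from the other 3.

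The other 39 higher lincRNAs had ratios of 1.56 to 8.17 with a median of 2.29. In order of ratio they were Gm43091, Gm11827, Gm11419, Gm35665, 5430425K12Rik, Gm31517, Gm20461, A730020M07Rik, Gm38563, Gm46404, Gm29107, 3930402G23Rik, 2310026L22Rik, Gm5086, C230035I16Rik, 4933433G15Rik, Gm47267, 9330175E14Rik, Gm34934, 4933406C10Rik, Gm6297, Gm26797, Gm47814, 5930430L01Rik, 4831440E17Rik, D130017N08Rik, Gm12319, 2310001H17Rik, E130102H24Rik, 2610035D17Rik, Gm43672, Gm31718, Gm30122, Gm17586, A530017D24Rik, Gm42595, Gm4035, 4932422M17Rik and Gm20342. Gm12319 lies 709 bases from Eno3, a muscle enolase gene that was at 5.42 ± 0.495 FPKM in KO-labelled fat and 2.87 ± 0.455 FPKM in WT fat. 9330175E14Rik shares 78 exon bases with Nlrc5, an interferon-induced activator of antigen presentation genes, which was at 8.07 ± 1.03 FPKM in KO-labelled fat and 4.35 ± 0.373 FPKM in WT fat.

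The other 31 higher antisense loci had ratios of 1.65 to 8.16 with a median of 2.27. They were Gm15650, 1700018L02Rik, Gm13091, A230083N12Rik, Gm15441, Gm15133, 4930481A15Rik, A530040E14Rik, Gm15510, 6330562C20Rik, Gm15445, Gm16982, Gm44949, Gm4524, Gm17025, Gm17133, Gm17116, Gm10138, Gm15726, Gm14320, Gm31305, Gm10603, 2310001K24Rik, Gm11131, Gm36266, 9530026P05Rik, Gm43500, 1500015A07Rik, 1600020E01Rik, Gm15635 and 4930599N23Rik. Several ran against a gene that met the rule in the same direction: Gm15441 against Txnip, a thioredoxin-binding protein gene (345 against 222 FPKM in KO-labelled against WT fat), Gm10138 against Ivns1abp (53.9 against 23.6 FPKM), Gm15635 against the transporter gene Slco2b1 (26.2 against 11.0 FPKM) and Gm4524 against the collagen-modifying gene P3h2 (3.59 against 1.59 FPKM). Others ran against a gene that was lower, namely Gm10603 against Ucp3, a mitochondrial carrier gene (4.43 against 10.003 FPKM), Gm15650 against Sh3tc1 (9.06 against 18.4 FPKM) and 1500015A07Rik against Afap1l1 (6.98 against 11.3 FPKM). These neighbours were chosen after their values were seen, because they met the rule.

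14 more processed transcripts were higher by 1.60 to 2.97 times, namely 2010016I18Rik, 1810032O08Rik, A330040F15Rik, 5031434O11Rik, 1700123M08Rik, Gm19391, A930006K02Rik, 4933439C10Rik, Gm20559, 2310015A10Rik, 5730405O15Rik, A530053G22Rik, 4933407K13Rik and 1110038B12Rik. The 12 other TEC loci, at 1.53 to 6.38 times, were Gm45909, Gm38244, Gm44220, Gm34294, Gm31024, Gm45819, Gm43197, Gm47976, Gm37303, Gm37090, Gm47218 and C130012C08Rik. Gm45909 lies within Ces1d, a carboxylesterase gene of fat that hydrolyses triglyceride, and was at 1.91 ± 1.02 FPKM in KO-labelled fat and 0.299 ± 0.165 FPKM in WT fat beside 184 ± 29.2 FPKM in KO-labelled fat and 95.8 ± 28.7 FPKM in WT fat for Ces1d. The pseudogene Gm45727 nearby, at 1.30 ± 0.705 FPKM in KO-labelled fat and 0.295 ± 0.202 FPKM in WT fat, lies 5061 bases from Ces1f, which was at 52.6 ± 4.84 FPKM in KO-labelled fat and 5.99 ± 2.51 FPKM in WT fat. 7 loci of other noncoding classes (Gm43914, Gm20621, Gm16576, Gm16675, F730043M19Rik, E130317F20Rik and Gm15513) were higher by 1.57 to 2.71 times. The 7 other small RNA loci were Gm26440, Gm23849, Gm22362, Gm25604, Gm27616, Gm26387 and Gm22478, with ratios of 2.36 to 5.74 where WT was above 0.

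The other 34 higher pseudogenes had ratios of 1.51 to 7.04. They were Gm12250, Gm5970, Gm35876, Gm8834, Gm7049, Gm6545, Gm42672, Gm45727, Gm15433, Gm11962, Gm13194, Gm1966, Gm20784, Gm13192, Gm5611, Gm9826, Gm11221, Gm15753, Gm19144, Gm4130, Gm10154, Gm5454, Gm10509, Gm8995, Gm7285, Gm2999, Gm4332, Gm19221, Gm14287, Gm49326, 6820431F20Rik, Gm6136, Gm13408 and Gm9493. Copies of ribosomal protein genes were the most abundant: Gm6136, 99.6% identical to Rpl6, was at 50.7 ± 10.2 FPKM in KO-labelled fat and 33.2 ± 4.98 FPKM in WT fat, and Gm4332, 99.7% identical to Rps20, at 36.4 ± 5.31 FPKM in KO-labelled fat and 21.7 ± 3.31 FPKM in WT fat. Rpl6 was at 84.2 ± 5.63 FPKM in KO-labelled fat and 80.6 ± 5.13 FPKM in WT fat and Rps20 at 33.9 ± 5.37 FPKM in KO-labelled fat and 27.4 ± 1.90 FPKM in WT fat, neither of which met the rule. Gm7049 is 98.4% identical to Me1, and was at 1.34 ± 0.698 FPKM in KO-labelled fat and 0.271 ± 0.0631 FPKM in WT fat, while Me1 was at 71.6 ± 28.9 FPKM in KO-labelled fat and 236 ± 36.5 FPKM in WT fat, so this copy and its parent were on opposite sides.

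Among the loci that were lower in KO-labelled fat, protein-coding loci included several of high expression. C130074G19Rik (chr1:184871926-184883218) was at 39.9, 33.6, 25.8 and 39.7 FPKM in KO1 to KO4, against 87.1, 96.4, 67.9 and 67.6 FPKM in WT1 to WT4. A530016L24Rik (chr12:112489448-112499927), known as Nrac, a membrane protein gene of fat and heart that responds to nutrition, was at 19.7, 16.9, 16.4 and 33.3 FPKM in the KO-labelled libraries and 49.96, 69.1, 44.3 and 43.2 FPKM in the WT libraries. 1500011K16Rik (chr2:127791388-127792488), known as Mtln, encodes a small mitochondrial protein that acts in fatty acid oxidation and was at 13.7, 9.28, 9.60 and 11.7 FPKM in KO-labelled fat, against 32.0, 27.4, 24.4 and 20.6 FPKM in WT fat. The ratios of WT over KO-labelled means were 2.30, 2.39 and 2.36. KO4 was the KO-labelled library nearest to WT for Nrac, whose neighbour Tmem179, 262 bases away, was at 8.98 ± 2.07 FPKM in KO-labelled fat and 27.9 ± 9.33 FPKM in WT fat.

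2610507B11Rik (chr11:78261752-78290623), the counterpart of human KIAA0100, was at 21.7, 25.2, 22.95 and 22.0 FPKM in KO1 to KO4, against 37.1, 37.8, 40.0 and 36.7 FPKM in WT1 to WT4. Both groups were tight, and the nearest libraries stood 1.46-fold apart. 2210016F16Rik, whose human counterpart salvages queuosine, a modified base of transfer RNA, was at 9.26, 9.65, 9.82 and 10.9 FPKM in the KO-labelled libraries and 18.4, 15.7, 13.7 and 15.0 FPKM in the WT libraries. 1190002N15Rik, known as Dipk2a, was at 7.84, 9.23, 8.63 and 8.51 FPKM in KO-labelled fat, against 17.3, 11.2, 18.1 and 12.1 FPKM in WT fat. WT2 was its lowest WT library and KO2 its highest KO-labelled one. 4931406C07Rik, which shares 235 exon bases with Taf1d, was at 6.37, 5.99, 5.80 and 6.996 FPKM in KO1 to KO4, against 13.8, 11.6, 11.1 and 12.1 FPKM in WT1 to WT4, and Taf1d at 2.45 ± 0.246 FPKM in KO-labelled fat and 2.27 ± 0.102 FPKM in WT fat. 0610009B22Rik was at 7.05, 7.24, 7.74 and 9.03 FPKM in the KO-labelled libraries and 13.4, 12.2, 10.7 and 10.4 FPKM in the WT libraries, the smallest ratio of the lower loci at 1.505. 1110032A03Rik, which shares exon bases with Fdxacb1 and Alg9 and lies 6192 bases from the small heat shock gene Cryab, was at 3.90, 3.82, 3.61 and 4.30 FPKM in KO-labelled fat, against 7.26, 7.44, 7.70 and 5.60 FPKM in WT fat, and Cryab was at 60.5 ± 8.07 FPKM in KO-labelled fat and 101.5 ± 13.5 FPKM in WT fat.

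Gm49450 (chr15:98932137-98953551) spans 2 alpha-tubulin genes and shares 473 exon bases with Tuba1a and 426 with Tuba1b. It was at 0.420, 1.41, 1.24 and 1.35 FPKM in KO1 to KO4, against 8.64, 5.66, 7.04 and 3.53 FPKM in WT1 to WT4. KO1 stood below the other KO-labelled libraries. Tuba1a was at 180.0 ± 39.4 FPKM in KO-labelled fat and 832 ± 232 FPKM in WT fat and Tuba1b at 130.3 ± 15.8 FPKM in KO-labelled fat and 269 ± 39.4 FPKM in WT fat. Tuba1c, 99.5% identical to it over most of its exon length, was at 17.2 ± 2.14 FPKM in KO-labelled fat and 24.3 ± 3.31 FPKM in WT fat and did not meet the rule. No source used here says how reads on such bases were assigned. D430019H16Rik (chr12:105453856-105493095) was at 0.813, 0.620, 0.814 and 1.38 FPKM in the KO-labelled libraries and 3.97, 5.17, 4.77 and 2.78 FPKM in the WT libraries, with KO4 and WT4 the nearest pair. Gm5460 was at 0.301, 0.216, 0.0571 and 0.363 FPKM in KO-labelled fat, against 1.35, 1.73, 1.248 and 0.929 FPKM in WT fat, and 1700029I15Rik, 1321 bases from the peroxisome gene Pex16, at 1.197, 0.666, 0.950 and 1.71 FPKM in KO1 to KO4, against 3.17, 2.45, 1.91 and 1.93 FPKM in WT1 to WT4. Pex16 was at 17.5 ± 2.22 FPKM in KO-labelled fat and 38.0 ± 8.67 FPKM in WT fat.

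Gm11037, inside the span of Hspa12b, an endothelial heat shock gene, was at 2.29, 1.36, 2.06 and 2.02 FPKM in KO1 to KO4, against 10.5, 3.48, 4.36 and 3.39 FPKM in WT1 to WT4. WT1 stood far above the other WT libraries, and Hspa12b was at 10.7 ± 1.46 FPKM in KO-labelled fat and 24.9 ± 5.78 FPKM in WT fat. Gm8797 is 98.2% identical to the ubiquitin gene Ubb and was at 0.350, 1.42, 0.674 and 0.495 FPKM in the KO-labelled libraries and 1.44, 1.87, 1.60 and 2.41 FPKM in the WT libraries, while Ubb was at 168 ± 45.3 FPKM in KO-labelled fat and 269 ± 34.0 FPKM in WT fat. KO2 and WT1 of Gm8797 lay almost level. Gm14698, 99.7% identical to Styx, was at 0.836, 0.512, 0.479 and 0.746 FPKM in KO-labelled fat, against 1.31, 0.909, 1.24 and 1.21 FPKM in WT fat, and Styx at 0.720 ± 0.139 FPKM in KO-labelled fat and 0.739 ± 0.0617 FPKM in WT fat. 4930578C19Rik was at 2.49, 2.85, 2.42 and 2.46 FPKM in KO1 to KO4, against 4.09, 4.51, 4.44 and 3.09 FPKM in WT1 to WT4, and KO2 stood above the other 3 KO-labelled libraries. 9330159F19Rik was at 0.815, 0.644, 0.938 and 0.974 FPKM in the KO-labelled libraries and 1.58, 1.77, 1.31 and 1.62 FPKM in the WT libraries, and Gm3468 at 0.369, 0.146, 0.253 and 0.248 FPKM in KO-labelled fat, against 0.762, 0.918, 0.803 and 0.603 FPKM in WT fat, the lower locus nearest to the minimum mean of 0.5 FPKM. In both, as the rule requires, KO-labelled libraries were all below WT libraries.

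The largest ratios among the lower loci were again at noncoding loci. Gm36816 (chr6:66990031-67009260), antisense within Gng12, a G protein subunit gene, was at 0.127, 0, 0 and 0.04999 FPKM in KO1 to KO4, against 2.96, 2.79, 2.86 and 2.52 FPKM in WT1 to WT4. Gm36827 (chr10:56970329-56982232), a lincRNA, was at 0.0824, 0.0653, 0.0331 and 0 FPKM in the KO-labelled libraries and 3.39, 2.27, 3.25 and 2.31 FPKM in the WT libraries. Both were near 0 in KO-labelled fat, with ratios of 62.7 and 62.1, and Gng12 was at 17.8 ± 0.837 FPKM in KO-labelled fat and 17.0 ± 0.880 FPKM in WT fat. Gm12236 (chr11:55514846-55527715), antisense to Glra1, was at 0 FPKM in all 4 KO-labelled libraries, against 2.51, 4.84, 1.74 and 2.60 FPKM in WT fat. With no read in 4 KO-labelled libraries it was, against 3 reads over that group, at least 25.0-fold lower. Gm13703 (chr2:73357268-73364333) and Gm13709 (chr2:73370909-73379297) both run antisense to Gpr155. They were at 0.688, 0.636, 0.184 and 0.630 FPKM in KO1 to KO4, against 8.21, 5.58, 7.77 and 7.79 FPKM in WT1 to WT4 for Gm13703 and at 0.335, 0.399, 0.336 and 0.197 FPKM in the KO-labelled libraries and 8.82, 6.19, 5.04 and 4.11 FPKM in the WT libraries for Gm13709. Gpr155 did not meet the rule, at 2.75 ± 0.374 FPKM in KO-labelled fat and 2.62 ± 0.112 FPKM in WT fat.

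Gm20369 (chr15:84182709-84183015), a pseudogene within Pnpla3, was at 0, 0.133, 0.134 and 0.263 FPKM in KO1 to KO4, against 4.22, 2.99, 3.69 and 6.09 FPKM in WT1 to WT4. Pnpla3, a lipase gene of fat and liver that is switched on by feeding, was at 13.2 ± 6.48 FPKM in KO-labelled fat and 137 ± 19.6 FPKM in WT fat, and the lincRNA Gm33432, 31578 bases from Pnpla3, at 0.134 ± 0.127 FPKM in KO-labelled fat and 1.06 ± 0.0784 FPKM in WT fat. Gm9696 (chr3:59952309-59973594) was at 0.743, 0.428, 0.311 and 0.278 FPKM in the KO-labelled libraries and 6.61, 6.97, 6.19 and 3.57 FPKM in the WT libraries. WT4 was its lowest WT library. Gm28802 (chr1:58850085-58892792), 94.4% identical to part of Als2cr12, was the most abundant of the 12, at 4.44, 1.94, 1.79 and 1.58 FPKM in KO-labelled fat, against 27.5, 16.2, 15.2 and 18.9 FPKM in WT fat, and KO1 stood apart from the other KO-labelled libraries. Gm454 (chr5:138203609-138207308) was at 0.777, 0.598, 1.04 and 1.61 FPKM in KO1 to KO4, against 7.99, 21.5, 11.1 and 4.66 FPKM in WT1 to WT4, with WT2 the highest. Nxpe5, 93.5% identical to it over part of its length, was at 2.95 ± 1.48 FPKM in KO-labelled fat and 1.05 ± 0.399 FPKM in WT fat, on the other side.

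Gm3211 (chr9:79913200-79913631), within Filip1, was at 0.226, 0, 0 and 0.133 FPKM in KO1 to KO4, against 1.03, 1.37, 1.44 and 3.21 FPKM in WT1 to WT4. Gm32507 (chr8:64937959-64943988) was at 0.314, 0, 0 and 0.555 FPKM in the KO-labelled libraries and 1.80, 2.29, 2.89 and 0.745 FPKM in the WT libraries. Gm47918 (chr13:58443021-58444580) was at 0.226, 0.0672, 0.136 and 0 FPKM in KO-labelled fat, against 0.776, 2.54, 0.575 and 0.938 FPKM in WT fat. Each of these 3 had 1 WT library apart or close to KO-labelled fat: WT4 was the highest for Gm3211, WT4 the lowest for Gm32507, and WT2 the highest for Gm47918. Filip1 was at 1.64 ± 0.219 FPKM in KO-labelled fat and 2.77 ± 0.0697 FPKM in WT fat.

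The other 25 lower lincRNAs had ratios of 1.53 to 7.88 with a median of 2.16, and were Gm33432, 1700047G03Rik, Gm40761, Gm13028, Gm33103, Gm29650, A330094K24Rik, Gm44956, Gm13056, Gm32389, Gm26671, 4833403J16Rik, 9330102E08Rik, Gm10451, Gm48371, 2810414N06Rik, Gm26613, 1110019D14Rik, Gm15675, 1810058I24Rik, 1110006O24Rik, C130083M11Rik, C430042M11Rik, 1700086O06Rik and D830026I12Rik. 1700047G03Rik (chr15:11964276-11970086) was at 10.9, 12.2, 7.11 and 10.8 FPKM in KO1 to KO4, against 71.1, 73.7, 85.6 and 51.8 FPKM in WT1 to WT4. All 4 KO-labelled libraries were far below the WT libraries. The small RNA locus Gm24074 lies inside its span and was at 1.79 ± 1.199 FPKM in KO-labelled fat and 7.35 ± 2.07 FPKM in WT fat. Gm5144, 56812 bases away, was at 1.16 ± 0.330 FPKM in KO-labelled fat and 3.40 ± 0.459 FPKM in WT fat and shares 321 exon bases with Npr3, the clearance receptor gene for natriuretic peptides, which was at 67.2 ± 8.14 FPKM in KO-labelled fat and 135 ± 15.6 FPKM in WT fat.

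The other 18 lower antisense loci had ratios of 1.60 to 7.62 with a median of 2.45, and were Gm45470, 3110045C21Rik, Gm16168, Gm42067, Gm20632, Gm16144, 1700052K11Rik, Gm19531, B430010I23Rik, Gm6277, Gm12426, Gm15050, Gm29585, Gm26982, Gm26881, Gm45188, D130020L05Rik and Gm48677. Gm45470 shares 839 exon bases with Adrb3, the beta-adrenergic receptor gene of adipocytes, and was at 0.585, 0.551, 0.785 and 1.22 FPKM in KO1 to KO4, against 6.45, 6.09, 7.33 and 4.07 FPKM in WT1 to WT4. Adrb3 was at 10.9 ± 4.06 FPKM in KO-labelled fat and 122 ± 29.6 FPKM in WT fat. Eif4ebp1, a brake on translation that lies between Gm45470 and the TEC locus 5430430B14Rik, was at 29.2 ± 4.51 FPKM in KO-labelled fat and 65.3 ± 14.2 FPKM in WT fat, and 5430430B14Rik at 0.489 ± 0.160 FPKM in KO-labelled fat and 3.41 ± 0.313 FPKM in WT fat. Gm16144 shares 98 exon bases with Anxa2 (125 against 267 FPKM), and Gm12426 shares 14 with the collagen gene Col15a1 (56.7 against 110.4 FPKM). Gm20632 lies 266 bases from the histone gene Hist2h3c2 (1.33 against 10.2 FPKM), and Gm15050 within Hoxa3 (0.622 against 1.08 FPKM).

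The 13 other processed transcripts that were lower, by 1.52 to 5.25 times, were Gm12610, Gm16163, B430212C06Rik, C430049B03Rik, 9330159M07Rik, Gm14207, 4930506C21Rik, Gm13372, Gm16565, 2810410L24Rik, 2310009A05Rik, 2900052L18Rik and 4921531C22Rik. B430212C06Rik runs antisense to Cidea, a lipid droplet gene (0.311 against 1.41 FPKM), 4930506C21Rik shares exon bases with Mpc1, a carrier of pyruvate into mitochondria (9.99 against 17.1 FPKM), and Gm14207 with Dll4, an endothelial Notch ligand (3.74 against 10.5 FPKM). The 5 TEC loci, at 1.78 to 6.98 times, were 5430430B14Rik, 5033425B01Rik, Gm43205, Gm4430 and Gm45769. 5033425B01Rik and the pseudogene Gm8162 both lie within Tmem45b, which was at 4.85 ± 2.05 FPKM in KO-labelled fat and 62.1 ± 14.8 FPKM in WT fat. 4 loci of other noncoding classes (Gm5144, Gm44982, Gm47863 and 2310014F06Rik) were lower by 1.99 to 2.94 times, and 3 small RNA loci (Gm24074, Gm24494 and Gm27861) by 2.23 to 4.12 times.

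The other 34 lower pseudogenes had ratios of 1.52 to 7.80, and were Gm8162, Gm7609, Gm7079, Gm15519, Gm44776, Gm3571, Gm11964, Gm8895, Gm17383, Gm45756, Gm5578, Gm6166, Gm4972, Gm28439, Gm3756, Gm5182, Gm14439, Gm1821, Gm16418, Gm2423, Gm10171, Gm12231, Gm4202, Gm13493, Gm6304, Gm5776, Gm15387, Gm18609, Gm13394, Gm11560, Gm4459, Gm13502, Gm7666 and Gm10704. Gm28439 is 100% identical to mt-Nd4, a mitochondrial gene of respiratory complex I, and was at 6.53 ± 2.30 FPKM in KO-labelled fat and 16.9 ± 4.60 FPKM in WT fat beside 994 ± 300.1 FPKM in KO-labelled fat and 2182 ± 354 FPKM in WT fat for mt-Nd4. Gm5182, 99.2% identical to Acaca, which makes malonyl-CoA for fatty acid synthesis, was at 2.78 ± 0.673 FPKM in KO-labelled fat and 6.58 ± 1.19 FPKM in WT fat beside 6.99 ± 1.14 FPKM in KO-labelled fat and 19.1 ± 3.53 FPKM in WT fat for Acaca. Gm17383 and Gm3756 are 98.7% identical to Tuba1b and were at 3.31 against 13.02 FPKM and 5.11 against 12.4 FPKM in KO-labelled against WT fat. Gm6166, a copy of the fatty acid binding gene Fabp5, was at 2.13 ± 1.09 FPKM in KO-labelled fat and 6.21 ± 1.97 FPKM in WT fat, and Fabp5 at 27.7 ± 3.86 FPKM in KO-labelled fat and 51.3 ± 5.60 FPKM in WT fat. Gm15519 and Gm5578 lie close together on chromosome 6 and were at 2.43 ± 0.827 FPKM in KO-labelled fat and 14.5 ± 3.07 FPKM in WT fat and 2.55 ± 0.782 FPKM in KO-labelled fat and 8.34 ± 1.28 FPKM in WT fat, while their parents Arfgap2 (6.62 against 6.27 FPKM) and Brox (11.1 against 11.2 FPKM) did not meet the rule.

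The same rule was applied to the genes that overlap the loci or lie nearest to them, as counts without a test. Of 36 tested genes that share exon bases with a higher locus, and are not themselves among the 308, 9 (25%) were higher and 2 lower. Of 42 that share exon bases with a lower locus, 15 (35.7%) were lower and 1 higher. For other predicted and RIKEN loci the shares were 2.65% higher and 8.26% lower of 339. No source used here says how the counting treated strand, so reads of such pairs cannot be told apart. Of 19 that overlap a lower locus but share no exon bases with it, 8 (42.1%) were lower and none were higher, beside 5.12% lower for other loci. For higher loci, 3 of 34 such genes were higher, beside 3.84%. Among the nearest genes that do not overlap, 18 of 152 beside higher loci were higher (11.8%), 21 of 100 beside lower loci were lower (21%), and the shares beside other loci were 4.05% and 7.85%.

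**Figure D4:**
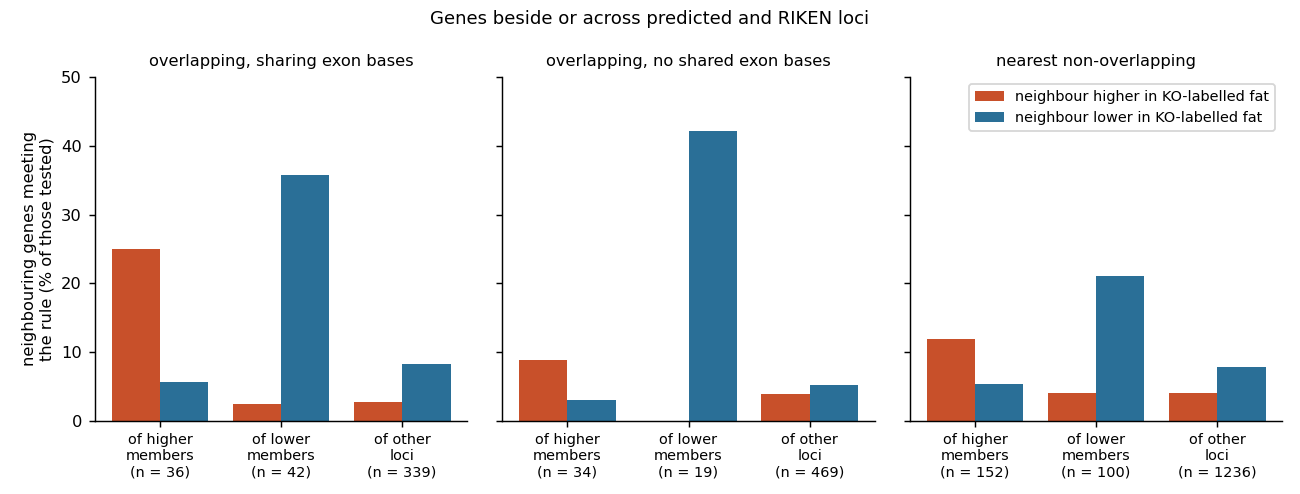
Bars give the percentage of tested neighbouring genes that were higher (orange) or lower (blue) in KO-labelled fat by the rule, for neighbours of higher loci, of lower loci and of other predicted and RIKEN loci, with the number of neighbours below. Neighbours of lower loci that share exon bases were lower in 35.7% of cases and those of higher loci higher in 25%.

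For pseudogenes with a copy elsewhere of at least 90% identity over at least 50% of their exon length, the copy could be set beside the locus. Of 31 lower pseudogenes with a tested copy, 11 had a copy that was lower and none one that was higher (35.5% lower, beside 9.41% for other predicted and RIKEN pseudogenes). Of 23 higher pseudogenes, 4 had a copy that was higher and 1 one that was lower (17.4% higher, beside 1.98%). Reads from such copies may be placed on either, and their part was not tested.

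**Figure D5:**
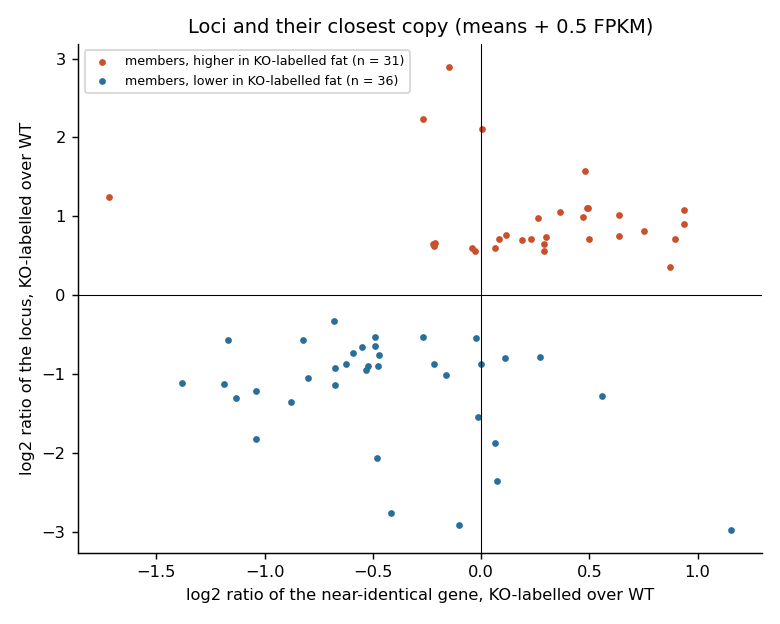
Each point is a member with a near-identical copy elsewhere, by the log2 ratio of the copy (horizontal) and of the locus (vertical), both from group means plus 0.5 FPKM, KO-labelled over WT. Of the lower loci (blue), 30 of 36 have a copy on the same side of 0, and of the higher loci (orange) 23 of 31, with Gm7049 far to the left; among other predicted and RIKEN loci, not drawn, it was 304 of 488.

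Within groups, libraries did not lie equally far from the other genotype. Among the 175 higher loci, KO1 was the KO-labelled library nearest to WT for 62, KO2 for 47, KO3 for 28 and KO4 for 38. Among the 133 lower loci, WT4 was the WT library nearest to KO-labelled fat for 60, WT3 for 35, WT1 for 21 and WT2 for 17. The order was not the same for the higher loci, where WT3 was nearest for 57, WT2 for 46, WT4 for 40 and WT1 for 32. For the lower loci, KO4 was the KO-labelled library nearest to WT for 45, KO1 and KO2 for 37 each and KO3 for 14. WT4 had 1602 FPKM of macrophage markers and 4686 FPKM of adipocyte markers, the highest and the lowest sums among the WT libraries, and the part of these in the order was not tested. Separation was narrow for 37 higher and 25 lower loci, whose nearest libraries of the 2 groups differed by less than 1.1-fold. Reads could be recovered for 173 higher and 128 lower loci, and 13 and 11 of them had under 10 reads in some library of the higher group.

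Over the whole class, set by name and not by its values, predicted and RIKEN loci took 7.04, 4.47, 4.18 and 4.35% of summed FPKM in KO1 to KO4, against 3.78, 3.81, 4.06 and 3.85% in WT1 to WT4. All KO-labelled libraries were above all WT libraries (difference 1.14 percentage points, exact two-sided permutation test, p = 0.0286, 0.0286 adjusted over 2 tests, the smallest that 4 against 4 allows). KO1 was far above the others, where 1 locus annotated as a microRNA, Gm23935, stood at 6975 FPKM and in the other 7 libraries at 1015 to 2376 FPKM. Without that locus the difference was 0.453 percentage points, and without KO1 it was 0.459. The summed FPKM over all genes, the divisor of each share, was 175006 to 192807 in KO-labelled fat and 211717 to 234141 in WT fat. The higher share was therefore not a higher FPKM sum for these loci in every KO-labelled library. Share times divisor was highest in KO1, but lower in KO2, KO3 and KO4 than in WT1, WT2 and WT3. The number of loci at 0.5 FPKM or more was 1980, 1937, 1999 and 1949 in KO-labelled fat, against 1790, 1845, 1740 and 1746 in WT fat (exact two-sided permutation test, p = 0.0286). No such number was taken for other genes, so a higher number is not shown to be particular to predicted and RIKEN loci. The number of loci differed by 186 on average, and by 420.2 with libraries scaled to the same sum. Limma called 200 of the 1841 loci higher (10.9%) and 181 lower (9.83%) at an adjusted p under 0.05, beside 11.7% and 18.6% of all genes, and 403 and 105 with that scaling, under which 4217 and 1180 of all 14400 genes were called. Without KO3 it called 131 and 118.

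At the edges of the rule, the higher loci with the smallest ratios were Gm9493 (1.51), Gm13408 (1.52) and Gm6136 (1.53), and those just under it were Gm9951 (1.499), 1190007I07Rik (1.48) and Gm4673 (1.48). For lower loci the smallest ratios inside were those of 0610009B22Rik (1.505), Gm10704 (1.52) and 4921531C22Rik (1.52), and the nearest outside those of Gm12359 (1.49), Gm44250 (1.49) and 2010003K11Rik (1.48). By mean FPKM, the higher loci just inside were I830077J02Rik (0.502), Gm16675 (0.502) and Gm20784 (0.511), and those just outside Gm15866 (0.498), Gm17954 (0.496) and 4931440P22Rik (0.492). The lower loci just inside were Gm3468 (0.513), 5033425B01Rik (0.528) and Gm13502 (0.533), and those just outside Gm37856 (0.490), Gm14412 (0.490) and Gm32688 (0.486).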

How the data were processed

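RNA of whole epididymal fat was enriched for poly(A) RNA and sequenced in 8 libraries, 4 per label. The labels do not tie libraries to animals, so each library was taken as 1 sample, and p-values measure the spread between libraries. The authors deposited FPKM values for 28295 genes. Per the submitters' processing notes, HISAT2 2.0.5, featureCounts and the mm10 build were used. The annotation release and the strand setting are not stated in any source at hand, and genes were matched by identifier to GENCODE M21 (28279 of 28295).

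The values were not counts, so limma 3.58.1 (R 4.3.3, trended and robust) was run on log2(FPKM + 0.5) over the 14400 genes with a mean of at least 0.5 FPKM, with Benjamini-Hochberg adjustment over all of them, after being tested on simulated data. FPKM values stepped in whole reads for 97.2% of genes (97.9% of values within 0.02 of a whole read), and voom on those reads called 186 loci higher and 153 lower. Near-identical copies were searched with BLAST 2.17.0 among annotated transcripts. The rest was computed in Python 3.11.15 with scipy 1.17.1, pandas 2.3.3 and numpy 2.4.6, and drawn with matplotlib 3.10.9. Members and gene lists were chosen with earlier results of these data known. Values per library are given for protein-coding members and for the 12 higher and 12 lower loci with the largest ratios at 1 FPKM or more, all members are named, and from each gene list up to 4 genes with the smallest adjusted p were to be named. Alternatives covered thresholds, pseudocounts of 0.1 and 1, scaling, names, a replicate block and leaving out libraries. Where a ratio rests on 0 reads, it was set against 3 reads over the group, which covers counting error only.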

Additional observations from a re-analysis of the deposited data

Results flagged for a closer look

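In 10 of 130 groups of 4 libraries, 1 library stood apart by Dixon's test at its 95% critical value. Groups at 0 FPKM in all 4 libraries are among the 130 but could not be checked. They were Gm37614 and Gm24407 in WT fat and Gm12236 in KO-labelled fat. Chance alone gives about 1 in 20 groups. All values are FPKM, except the share of summed FPKM.

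Among higher loci, KO4 stood above the other KO-labelled libraries for Gm31522 (3.34 against 1.18 to 1.44), WT4 above the other WT libraries for the immunity-related GTPase locus Gm5431 (1.37 against 0.530 to 0.670), and WT2 above the other WT libraries for 1700029J07Rik (1.01 against 0.589 to 0.638). Among lower loci, KO3 lay below the other KO-labelled libraries for Gm13703 (0.184 against 0.630 to 0.688), and WT2 below the other WT libraries for the same locus (5.58 against 7.77 to 8.21). KO1 lay above the others for Gm28802 (4.44 against 1.58 to 1.94) and below them for Gm49450 (0.420 against 1.24 to 1.41). KO2 lay above the others for 4930578C19Rik (2.85 against 2.42 to 2.49), and WT1 above the other WT libraries for Gm11037 (10.5 against 3.39 to 4.36). In the share of summed FPKM taken by predicted and RIKEN loci, KO1 stood at 7.04% and the other KO-labelled libraries at 4.18% to 4.47%.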

How the results depend on the processing

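With every library scaled to the same sum, 319 loci met the rule higher and 75 lower, and limma called 403 and 105. Median-of-ratios scaling gave 179 and 129 by the rule and 209 and 176 by limma. Quantile normalization gave 149 and 148 by the rule and 159 and 174 by limma. A mean of at least 1 FPKM left 94 higher loci (131 by limma), and 0.1 FPKM gave 335 higher and 203 lower, both by construction. A ratio of at least 2 left 88 lower loci. Without WT1 and WT2, 267 loci met the rule higher, and limma called 103 and 73. With 1 library left out, 187 to 217 loci were higher and 136 to 183 lower, and limma called 131 to 208 higher and 118 to 185 lower, fewest without KO3. The difference in share ranged from 0.459 (without KO1) to 1.41 percentage points, and in number of loci from 173 to 208. Leaving out 1 library puts the smallest exact permutation p at 0.0571, so these could not pass. Under sum scaling the number of loci differed by 420.2, and Cul3 passed at a log2 fold change of 0.36 (limma adjusted p = 0.0488). Its adjusted p was 0.326 to 0.875 with 1 library left out. Under the alternatives there were 806 log2 ratios of the 62 loci given in full. Of these, 723 moved by less than the replicate SD and 83 by more, and 0 changed sign. By the rule, all KO-labelled values of these loci lay on the same side of all WT values. Leaving out a library or changing the pseudocount therefore could not change a sign, and only the scaling alternatives could. The cause of the moves was not tested.

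The replicate numbers were not shown to pair libraries: deviations of same-numbered libraries correlated at -0.06, -0.13, 0.17 and -0.32. With a replicate block, limma called 138 loci higher and 136 lower, Cul3 had an adjusted p of 0.448, and 2 macrophage markers were called higher and 6 adipocyte markers lower.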
